A study of Mus musculus with 24 samples.

Results

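The 9 genes described here encode core proteins of mitochondrial apoptosis, namely the anti-apoptotic BCL2 proteins Bcl2l1 and Mcl1, the BH3-only proteins Bcl2l11, Bid and Bad, the pore-forming effectors Bax and Bak1, and the apoptosome proteins Casp9 and Apaf1. They were chosen by name, as genes of this pathway, among the 15390 genes of the deposited table. The choice was made with earlier results of these data known, so counts of these genes called are a description and not an independent test. All 9 passed the filter on low values that 13272 genes passed. In this pathway BH3-only proteins bind and block the anti-apoptotic members or activate Bax and Bak1, which then permeabilize the outer mitochondrial membrane. Released cytochrome c assembles Apaf1 and pro-caspase 9 into the apoptosome, where caspase 9 is activated. Ligands such as TNF reach this pathway when caspase 8 cleaves Bid.

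The cells were MC38, a line derived from a mouse colon carcinoma, and 24 libraries of 3' tags were read. The groups were Ado KO cells with no treatment, with TNF for 1 h and with TNF for 6 h, and control cells with no treatment, with TNF for 1 h and with TNF for 6 h, each with 4 libraries. Ado KO cells carried 1 of 2 guide RNAs against Ado, a thiol dioxygenase gene, and control cells carried 1 of 2 control guide RNAs, so the 24 libraries stem from 4 guide populations with 2 libraries per population and treatment. Whether a population was a clone, and whether its 2 libraries came from separate cultures, is not given in the sources used here, so p-values rest on a spread among libraries that may be technical. The titles of the untreated libraries give no harvest time, so from these labels TNF and time in culture cannot be told apart at 6 h. Libraries are named by guide and replicate number, so 2-1 is replicate 1 of guide 2.

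Levels are normalised log2 CPM, the log2 of tag counts scaled to a common library size, and a difference of 1 on this scale is a 2-fold difference. Whole tag counts could be read back from the low values and placed the depth at an estimated 3920000 to 6240000 tags per library. At that depth Bcl2l11 rested on 14 to 61 tags per library (median 28.0), Casp9 on 20 to 65 (median 47.5), Apaf1 on 33 to 90 (median 54.0) and Bax on 32 to 95 (median 73.5), so counting error alone has an SD of 0.27 on the log2 scale for Bcl2l11 and 0.21 for Casp9. Ado, read near its 3' end, averaged 5.35 ± 0.09 in untreated Ado KO cells and 5.26 ± 0.08 in untreated control cells (SD, n = 4 each); a small coding change need not alter it, so it checks neither the editing nor the labels. Of 9 epithelial markers 3 were in the table, with summed levels of 0.294 to 3.37 CPM per library. Of 6 mesenchymal markers 4 were in it and summed to 1531 to 2001 CPM, most of it from Vim. Median levels were 10.45 log2 CPM for Vim, 7.74 for Sparc, 6.02 for Fn1 and 5.52 for Col3a1, while Col1a1 and Col1a2 were not in the table. Of 8 immune markers 5 were in the table and summed to 6.06 to 19.6 CPM. Pecam1, the 1 of 4 endothelial markers in the table, reached 1.62 CPM at most. The medians of Cdh1, Krt8 and Krt18 were -0.98, -0.57 and -3.35 log2 CPM, where -3.35 is the lowest value of the table, so the epithelial origin of the line is not visible in these markers.

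**Figure D1:**
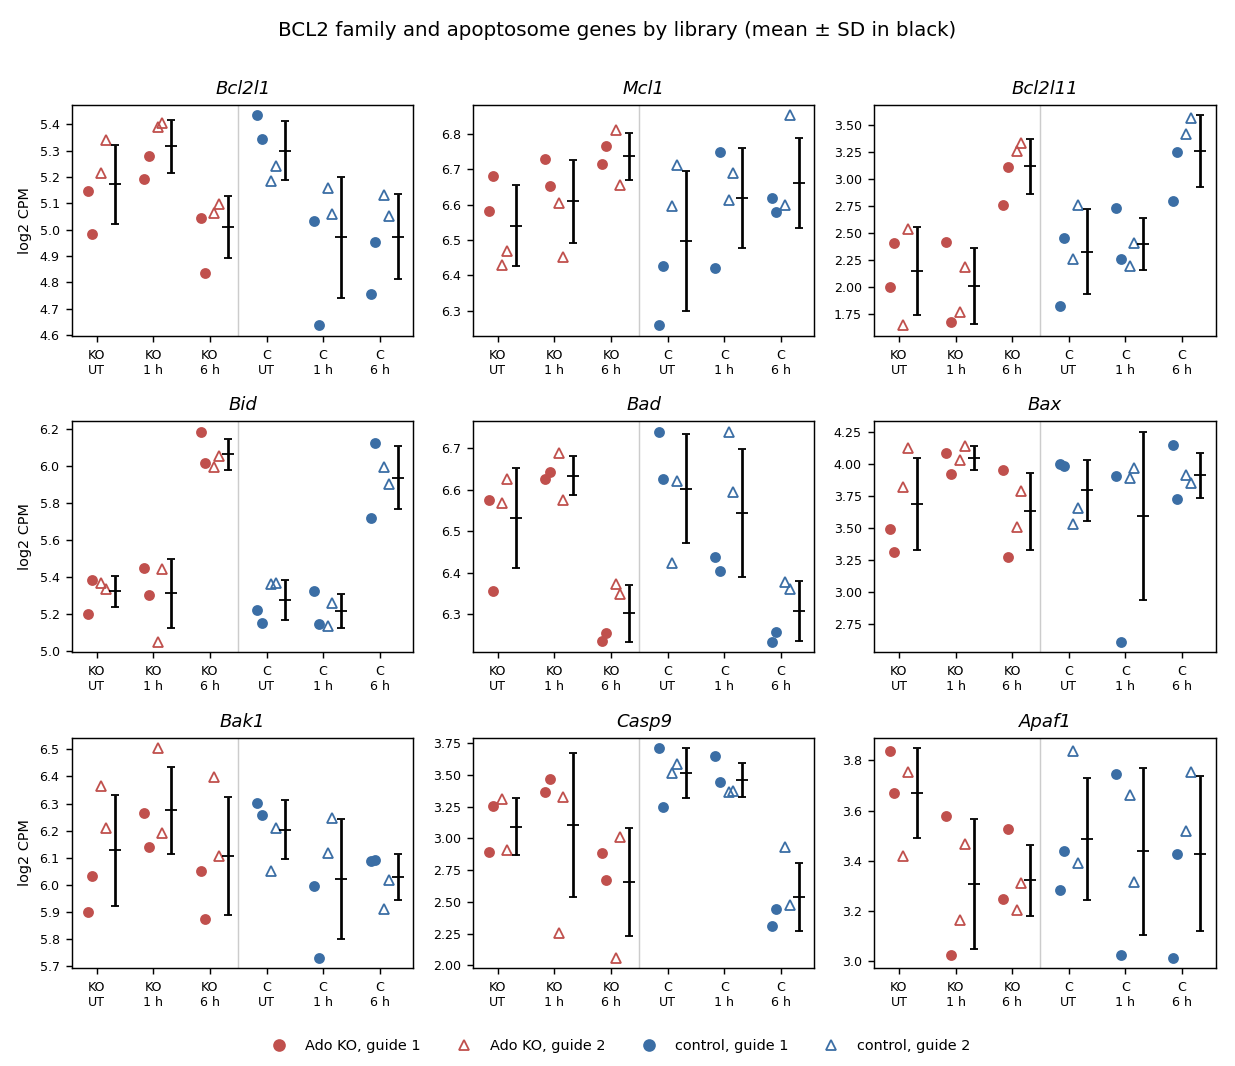
Normalised log2 CPM (y axis, own scale for each gene) of the 9 genes in each library, by genotype (KO, Ado KO; C, control) and treatment (UT, untreated; 1 h and 6 h of TNF). Circles are guide 1 and triangles guide 2, and black marks show the mean ± SD of 4 libraries. Bid and Bcl2l11 stand highest at 6 h in both genotypes, and Casp9 stands lowest at 6 h in control cells.

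The first comparisons asked what TNF did to these genes in each genotype. At 6 h limma called the pro-apoptotic BH3-only genes Bid and Bcl2l11 higher in both genotypes, and Casp9, Bad and Bcl2l1 lower in control cells. In Ado KO cells the differences of Casp9, Bad and Bcl2l1 were also negative (-0.44, -0.23 and -0.16) but were not called. The genotype difference in the 6 h response was called for 0 of the 9 genes, so these falls are not shown to be particular to control cells. In Ado KO cells 2 of the 9 genes were called higher and 0 lower, where limma called 6.44% of all genes tested, 4.42% higher and 2.02% lower. In control cells 2 were called higher and 3 lower, where limma called 18.0% of all genes tested, 7.74% higher and 10.3% lower. The median log2 difference at 6 h was -0.06 over the 9 genes and -0.05 over all genes tested in Ado KO cells, and -0.06 and -0.09 in control cells. Between 1 h and 6 h limma called 3 of the 9 genes in Ado KO cells (Bid and Bcl2l11 higher, Bad lower) and 3 in control cells (Bid and Bcl2l11 higher, Casp9 lower), where it called 7.77% of all genes tested in Ado KO cells (4.05% higher and 3.72% lower) and 7.68% in control cells (4.82% higher and 2.86% lower). With 1 library left out, 1 of the 9 was called at 6 h against untreated in Ado KO cells (without Ado KO untreated 2-1, where 5.31% of all genes tested were called) and 3 in control cells (without control untreated 1-1, where 11.9% were).

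**Figure D2:**
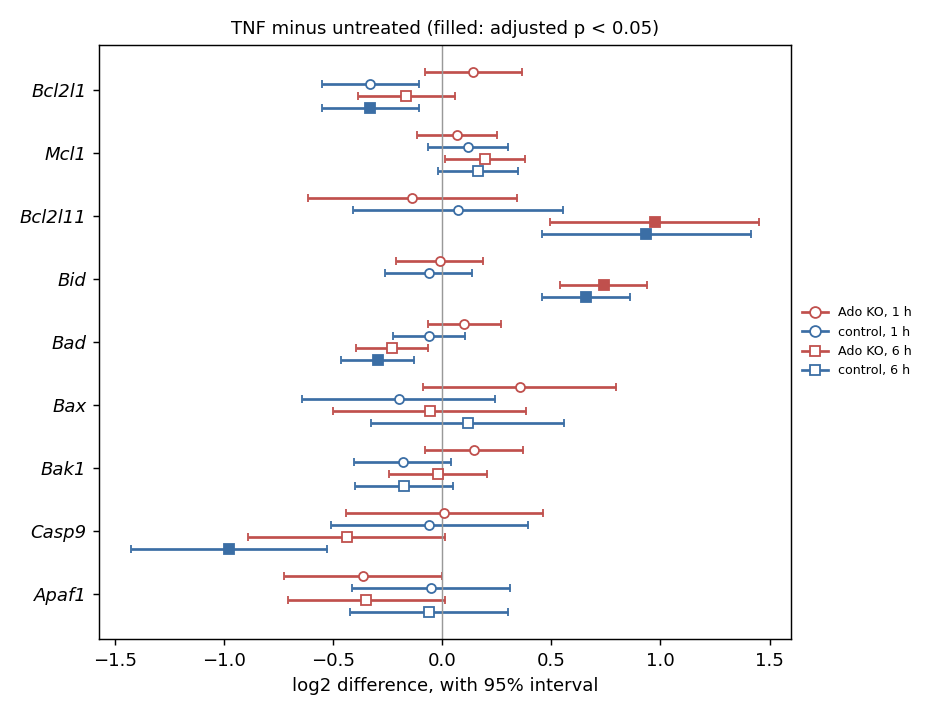
Log2 difference of TNF minus untreated (x axis) for each gene, with its 95% interval, in Ado KO cells (red) and control cells (blue) at 1 h (circles) and 6 h (squares). Filled marks have a limma adjusted p under 0.05: Bid and Bcl2l11 in both genotypes at 6 h, and Casp9, Bad and Bcl2l1 in control cells at 6 h.

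Bid (GRCm38 chromosome 6, 120891930 to 120916853, minus strand), the BH3-only protein that caspase 8 cleaves, rose at 6 h in both genotypes. In Ado KO cells its levels were 6.18, 6.01, 5.99 and 6.05 log2 CPM at 6 h, against 5.20, 5.38, 5.37 and 5.33 in untreated libraries. In control cells they were 5.72, 6.12, 5.99 and 5.90 at 6 h, against 5.22, 5.15, 5.36 and 5.37 untreated. Every 6 h library lay above every untreated library of its genotype. The log2 difference was 0.74 ± 0.10 in Ado KO cells (SE; limma adjusted p = 1.42e-06) and 0.66 ± 0.10 in control cells (SE; limma adjusted p = 7.27e-06), or 1.67-fold and 1.58-fold. Bid was higher at 6 h in each guide population, by 0.81 and 0.67 for Ado guides 1 and 2 and 0.73 and 0.58 for control guides 1 and 2.

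At 1 h Bid was not called, with log2 differences of -0.01 ± 0.10 in Ado KO cells and -0.06 ± 0.10 in control cells (SE; limma adjusted p = 0.99 and 0.819). Between 1 h and 6 h it rose by 0.75 in Ado KO cells and by 0.72 in control cells (limma adjusted p = 1.57e-06 and 2.05e-06). The gene Bcl2l13 runs over the 3' end of Bid on the other strand, and the strand setting of the authors' counting is not given in the sources used here. Bcl2l13 itself had 6 h differences of 0.01 ± 0.12 in Ado KO cells and -0.24 ± 0.12 in control cells (SE; limma adjusted p = 0.992 and 0.168).

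Bcl2l11 (chromosome 2, 128126038 to 128162547, plus strand) encodes Bim, a BH3-only protein that binds the anti-apoptotic BCL2 proteins. In Ado KO cells its levels were 2.76, 3.12, 3.27 and 3.34 log2 CPM at 6 h, against 2.00, 2.41, 1.64 and 2.54 untreated. In control cells they were 2.80, 3.25, 3.42 and 3.57 at 6 h, against 1.82, 2.46, 2.26 and 2.77 untreated. The groups did not overlap in either genotype, although in control cells the lowest 6 h library was only just above the highest untreated one. The log2 difference was 0.97 ± 0.24 in Ado KO cells (SE; limma adjusted p = 0.00672) and 0.94 ± 0.24 in control cells (SE; limma adjusted p = 0.0056), a 1.96-fold and 1.91-fold rise. Without Ado KO untreated 2-1, the lowest library, the Ado KO difference was 0.80 with limma adjusted p = 0.0504. With 1 guide alone, and so fewer libraries, the Ado KO call ended for guide 1 (0.74, limma adjusted p = 0.409) but not for guide 2 (1.21, limma adjusted p = 0.0215), and the control call ended for both (0.89 and 0.98, limma adjusted p = 0.117 and 0.0634). Between 1 h and 6 h Bcl2l11 rose by 1.11 in Ado KO cells and by 0.86 in control cells (limma adjusted p = 0.00193 and 0.0165). The control call ended without TNF 1 h 2-1, TNF 6 h 2-1 or TNF 6 h 2-2 (0.79, 0.82 and 0.76, limma adjusted p = 0.06, 0.0523 and 0.0689), and with guide 1 alone both calls ended (0.89 in Ado KO cells and 0.53 in control cells, limma adjusted p = 0.203 and 0.493). At 1 h the differences were -0.14 ± 0.24 in Ado KO cells and 0.07 ± 0.24 in control cells (SE; limma adjusted p = 0.943 and 0.917).

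Bad (chromosome 19, 6941861 to 6951899, plus strand), a BH3-only protein whose binding is controlled by phosphorylation, had levels of 6.23, 6.25, 6.37 and 6.35 log2 CPM at 6 h in Ado KO cells, against 6.58, 6.36, 6.57 and 6.63 untreated. In control cells its levels were 6.23, 6.26, 6.38 and 6.36 at 6 h, against 6.74, 6.63, 6.42 and 6.62 untreated. The 6 h libraries were lower than untreated ones except that Ado KO untreated 1-2 lay within the 6 h range. The difference was -0.23 ± 0.08 in Ado KO cells (SE; limma adjusted p = 0.0991) and -0.30 ± 0.08 in control cells (SE; limma adjusted p = 0.0113), so the fall was called in control cells. It was not called there without untreated 1-1 (-0.25, limma adjusted p = 0.0595) or with guide 2 alone (-0.15, limma adjusted p = 0.426), and in Ado KO cells it was called with guide populations as fixed terms (limma adjusted p = 0.0453) or without untreated 1-2 (-0.29, limma adjusted p = 0.0434). Between 1 h and 6 h the Bad difference was -0.33 ± 0.08 in Ado KO cells and -0.24 ± 0.08 in control cells (SE; limma adjusted p = 0.00828 and 0.0732), so it was called in Ado KO cells. That call ended with guide 1 or guide 2 alone (-0.39 and -0.27, limma adjusted p = 0.0631 and 0.154), and the control difference was called with guide populations as fixed terms or without TNF 1 h 1-2 (-0.24 and -0.28, limma adjusted p = 0.032 and 0.0308).

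Among the apoptosome genes, Casp9 (chromosome 4, 141793612 to 141815976, plus strand), the initiator caspase that Apaf1 activates, fell at 6 h in control cells. Its control levels were 2.31, 2.44, 2.93 and 2.47 log2 CPM at 6 h, against 3.71, 3.25, 3.51 and 3.59 untreated, with no overlap. The log2 difference was -0.98 ± 0.22 (SE; limma adjusted p = 0.00217), so the level at 6 h was 0.508 times the untreated one. With control guide 2 alone the difference was -0.85 and was not called (limma adjusted p = 0.128), and that between 1 h and 6 h was -0.67 against -0.92 with all libraries (limma adjusted p = 0.332 and 0.00555). The Ado KO difference between 1 h and 6 h was -0.45 (limma adjusted p = 0.24), and -0.73 without TNF 1 h 2-1 (limma adjusted p = 0.029). In Ado KO cells the levels were 2.89, 2.67, 2.06 and 3.01 at 6 h, against 2.90, 3.26, 3.31 and 2.91 untreated, and the groups overlapped. The Ado KO difference was -0.44 ± 0.22 (SE; limma adjusted p = 0.301). The difference between these responses was itself not called, at 0.54 ± 0.31 (SE; 95% interval -0.10 to 1.18; limma adjusted p = 0.797). Untreated Casp9 averaged 3.09 ± 0.22 in Ado KO cells and 3.51 ± 0.20 in control cells (SD, n = 4 each), a difference of -0.42 ± 0.23 (SE; limma adjusted p = 0.643).

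In bulk RNA, fewer cells with the message and less message per cell cannot be told apart, for Casp9 as for every gene here. The annotated genes Cela2a and Ctrc, on the other strand, cover the 3' end of Casp9 and were not analysed here. Small structural RNAs made up 1.45 to 1.72% of the summed values in Ado KO libraries at 6 h, against 0.286 to 0.392% untreated, and 2.20 to 3.37% in control libraries at 6 h, against 0.266 to 0.308% untreated. Mitochondrially encoded RNAs made up 2.36 to 2.62% in Ado KO libraries at 6 h, against 2.05 to 2.40% untreated, and 2.88 to 3.27% in control libraries at 6 h, against 1.97 to 2.50% untreated. With protein-coding genes alone normalised again, the control difference of Casp9 was -0.91 (limma adjusted p = 0.00492), those of Bid and Bcl2l11 were 0.68 and 1.00, and that of Bad was -0.27 (limma adjusted p = 0.0207).

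Apaf1 (chromosome 10, 90989311 to 91082770, minus strand), the scaffold of the apoptosome, was not called at either time. In Ado KO cells its mean level was 3.67 ± 0.18 untreated, 3.31 ± 0.26 after 1 h and 3.32 ± 0.14 after 6 h (SD, n = 4 each). In control cells it averaged 3.49 ± 0.24, 3.44 ± 0.33 and 3.43 ± 0.31 at the same times (SD, n = 4 each). The log2 difference at 6 h was -0.35 (95% interval -0.71 to 0.01) in Ado KO cells and -0.06 (95% interval -0.42 to 0.30) in control cells.

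Of the anti-apoptotic genes, Bcl2l1 (chromosome 2, 152780668 to 152831728, minus strand) encodes Bcl-xL, which holds Bax and BH3-only proteins in check. At 6 h in Ado KO cells its levels were 5.04, 4.83, 5.06 and 5.10 log2 CPM, against 5.14, 4.98, 5.22 and 5.34 untreated. At 6 h in control cells they were 4.76, 4.95, 5.13 and 5.05, against 5.43, 5.34, 5.19 and 5.24 untreated. The control groups did not overlap and the Ado KO groups did. The difference was -0.16 ± 0.11 in Ado KO cells (SE; limma adjusted p = 0.487) and -0.33 ± 0.11 in control cells (SE; limma adjusted p = 0.0357). By population it was -0.13 and -0.20 for Ado guides 1 and 2 and -0.53 and -0.12 for control guides 1 and 2. The control call ended when untreated 1-1, untreated 1-2, 6 h 1-1 or 6 h 1-2, all of guide 1, was left out (log2 differences -0.28, -0.31, -0.26 and -0.33; limma adjusted p = 0.124, 0.0875, 0.15 and 0.069), and with guide 2 alone (limma adjusted p = 0.674). It also ended with protein-coding genes normalised again, at -0.30 (limma adjusted p = 0.06). Between 1 h and 6 h the Bcl2l1 difference was -0.31 ± 0.11 in Ado KO cells and 0.0008 ± 0.11 in control cells (SE, limma adjusted p = 0.0834 and 0.999). Neither was called, though in 1 of 9 alternatives other than leaving a library out the Ado KO difference was (limma adjusted p = 0.0445). The 6 h responses of the genotypes differed by 0.16 ± 0.15 (SE, limma adjusted p = 0.885).

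Mcl1 (chromosome 3, 95658788 to 95663176, plus strand), a short-lived anti-apoptotic protein that restrains Bak1 and Bim, was not called in any comparison. In Ado KO cells it ranged from 6.66 to 6.81 log2 CPM at 6 h, against 6.43 to 6.68 untreated, and in control cells from 6.58 to 6.85 at 6 h, against 6.26 to 6.71 untreated. Its 6 h differences were 0.20 in Ado KO cells (95% interval 0.01 to 0.38; limma adjusted p = 0.24) and 0.16 in control cells (95% interval -0.02 to 0.35; limma adjusted p = 0.214).

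The effector genes Bax (chromosome 7, 45461697 to 45466898, minus strand) and Bak1 (chromosome 17, 27019810 to 27029009, minus strand), whose products form the pores, were not called by limma at 6 h. Bax differed by -0.06 in Ado KO cells (95% interval -0.50 to 0.39) and by 0.12 in control cells (95% interval -0.33 to 0.56). Bak1 differed by -0.02 in Ado KO cells (95% interval -0.24 to 0.20) and by -0.18 in control cells (95% interval -0.40 to 0.05). Bax lay between 3.28 and 3.96 log2 CPM at 6 h in Ado KO cells, against 3.31 and 4.13 untreated, and between 3.73 and 4.15 at 6 h in control cells, against 3.54 and 4.00 untreated, so its groups overlapped in both genotypes. The intervals of Bax reach the size of the called change in Bcl2l1. Ggnbp1 covers the 3' end of Bak1 on the other strand, so some Bak1 tags are uncertain.

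At 1 h, 0 of the 9 genes were called by limma in Ado KO cells and 0 in control cells, where 0.256% and 0.392% of all genes tested were. At an unadjusted p under 0.05 there was 1 lower gene in each genotype, Apaf1 in Ado KO cells (-0.36 ± 0.18, SE; limma adjusted p = 0.688) and Bcl2l1 in control cells (-0.33 ± 0.11, SE; limma adjusted p = 0.164). Bcl2l1 levels at 1 h were 5.19, 5.28, 5.39 and 5.40 in Ado KO cells and 5.03, 4.64, 5.16 and 5.06 in control cells, and every Ado KO library lay above every control library. Against untreated cells the 1 h difference was 0.14 ± 0.11 in Ado KO cells and -0.33 ± 0.11 in control cells (SE), and these responses differed by 0.47 ± 0.15 (SE; 95% interval 0.16 to 0.79; limma adjusted p = 0.441). Of the 9 genes 0 were called for this difference in response, where 0% of all genes tested were called. At an unadjusted p under 0.05 there were 2, Bcl2l1 and Bak1 (0.33 ± 0.16, SE, limma adjusted p = 0.49). The share of all genes at an unadjusted p under 0.05 was not counted, so these numbers cannot be set against it.

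Control TNF 1 h 1-2 had the lowest Bcl2l1 (4.64), Bax (2.61), Bak1 (5.73), Bad (6.40) and Apaf1 (3.02) of its group. It had the highest Mcl1 (6.75) and stood at neither end for Bid, Bcl2l11 and Casp9. Mitochondrially encoded RNAs took 3.58% of the summed values of this library, against 2.55 to 2.66% in the other libraries of the group. Leaving this library out gave a Bcl2l1 difference of -0.22 between TNF 1 h and untreated control cells (limma adjusted p = 0.47), of 0.23 between Ado KO and control cells at 1 h (limma adjusted p = 0.35) and of 0.36 between the responses (limma adjusted p = 0.534). The difference between Ado KO and control cells at 1 h was then 0.11 for Bax and 0.15 for Bak1, against 0.45 and 0.25 with all libraries.

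The next comparison set Ado KO against control cells at matched times, with 2 guide populations per genotype. None of the 9 genes was called by limma in untreated cells, at 1 h or at 6 h, where 0.249%, 1.06% and 1.02% of all genes tested were called. At an unadjusted p under 0.05, where no share of all genes was counted, the numbers were 0, 2 and 0. The 2 at 1 h were Bcl2l1 (0.34 ± 0.11, SE, limma adjusted p = 0.127) and Bak1 (0.25 ± 0.12, SE, limma adjusted p = 0.276). With guide populations as fixed terms Bcl2l1 was called at 1 h (limma adjusted p = 0.042). In that setting 334 of 13272 genes were called higher and 275 lower, against 141 in either direction with guide population as a random block. For Bid the genotype difference was 0.05 untreated, 0.10 at 1 h and 0.13 at 6 h, each with an interval that spans 0 (-0.16 to 0.25, -0.11 to 0.31 and -0.08 to 0.34). For Bcl2l11 it was -0.18, -0.39 and -0.14 at the same times, with wider intervals (-0.68 to 0.32, -0.89 to 0.11 and -0.65 to 0.36).

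**Figure D3:**
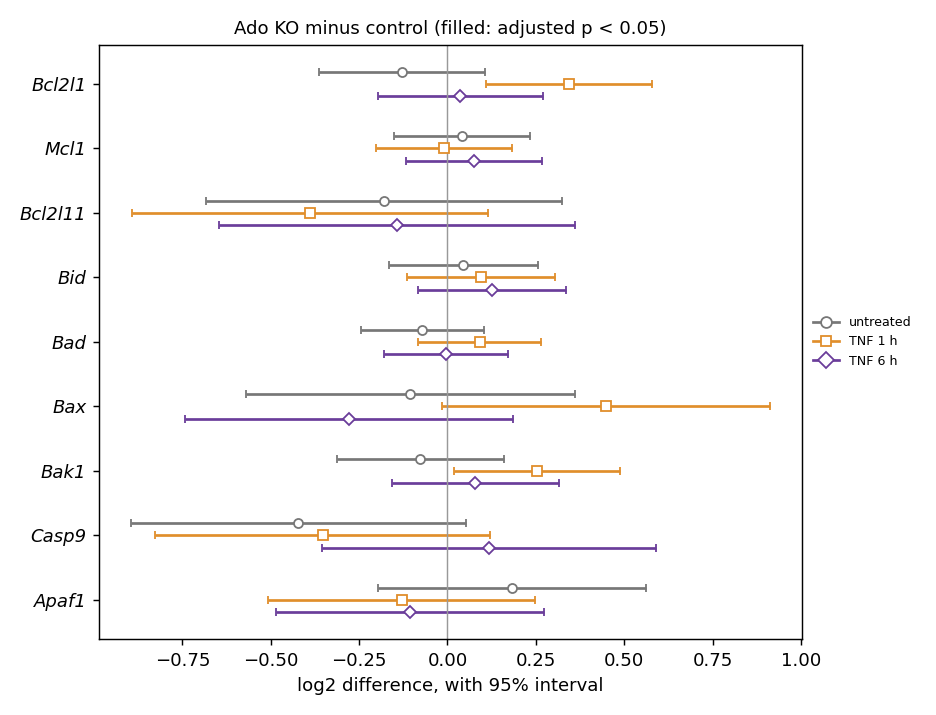
Log2 difference of Ado KO minus control (x axis) for each gene, with its 95% interval, in untreated cells (grey circles), at TNF 1 h (orange squares) and at TNF 6 h (purple diamonds). No mark is filled, since no gene had a limma adjusted p under 0.05, and the point farthest from 0 is Bax at 1 h (0.45).

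The difference between genotypes in the 6 h response was called by limma for 0 of the 9 genes, where 0.347% of all genes tested were called. At an unadjusted p under 0.05 there were also 0 of the 9. For Bid this difference was 0.08 (95% interval -0.20 to 0.36), for Bcl2l11 0.04 (95% interval -0.64 to 0.72) and for Bad 0.07 (95% interval -0.17 to 0.30). Between guides of 1 genotype limma called 0 of 9 between Ado guides 2 and 1, where it called 0.158% of all genes tested, and 0 between control guides 2 and 1, where it called 4.61%. At an unadjusted p under 0.05 there were 2 between Ado guides, Bcl2l1 (0.17) and Bak1 (0.25), and 1 between control guides, Mcl1 (0.17), again with no share of all genes counted.

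The promoter sequences of 4 of the 5 members called at 6 h are shown because they are the stretches in which a shared element could be sought. For Bcl2l11 and Bcl2l1, which have 2 and 3 starts in the table, the start shown was chosen because its window holds a match, and the 2 windows of Bad, which hold none, are not printed. Each line gives the 250 bases before a RefSeq transcription start (GRCm38.p6), 5' to 3' on the gene's strand, and capitals mark matches to the NF-kB site known as the kB consensus, the FOXO site GTAAACA or the E-box CACGTG, sought on both strands. The windows are chr6:120916825-120917074 (minus strand) for Bid, chr2:128125788-128126037 (plus strand) for Bcl2l11, chr4:141793362-141793611 (plus strand) for Casp9 and chr2:152830718-152830967 (minus strand) for Bcl2l1.
Bid: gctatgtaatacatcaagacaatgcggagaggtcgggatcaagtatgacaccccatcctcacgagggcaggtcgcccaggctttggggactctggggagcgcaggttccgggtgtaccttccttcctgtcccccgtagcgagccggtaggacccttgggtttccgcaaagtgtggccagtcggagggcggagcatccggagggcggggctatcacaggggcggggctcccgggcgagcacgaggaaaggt
Bcl2l11: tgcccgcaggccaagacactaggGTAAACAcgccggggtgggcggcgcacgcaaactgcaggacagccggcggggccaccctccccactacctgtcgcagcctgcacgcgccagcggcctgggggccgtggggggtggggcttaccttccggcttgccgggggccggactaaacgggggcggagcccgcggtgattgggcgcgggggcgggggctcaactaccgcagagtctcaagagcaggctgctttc
Casp9: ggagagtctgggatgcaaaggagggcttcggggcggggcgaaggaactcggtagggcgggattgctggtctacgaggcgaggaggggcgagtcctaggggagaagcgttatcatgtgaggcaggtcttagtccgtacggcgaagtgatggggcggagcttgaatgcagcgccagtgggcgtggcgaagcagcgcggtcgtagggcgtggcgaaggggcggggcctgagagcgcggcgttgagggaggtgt
Bcl2l1: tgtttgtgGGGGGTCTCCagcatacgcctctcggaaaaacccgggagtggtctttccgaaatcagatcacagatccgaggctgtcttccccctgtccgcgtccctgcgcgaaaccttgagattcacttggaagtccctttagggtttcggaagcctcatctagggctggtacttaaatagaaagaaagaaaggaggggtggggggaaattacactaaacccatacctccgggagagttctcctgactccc

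The table of promoters held 13 starts for the 9 genes. A kB match was found in 1 of the 13, at 242 bases before the middle of the 3 Bcl2l1 starts, and 7.25% of 32851 mouse promoters held one. A FOXO match was found in 1 of the 13, at 227 bases before the upstream Bcl2l11 start, against 3.17% of all promoters, and an E-box in 1 of the 13, at 9 bases before the Bax start, against 6.02%. Neither Bid nor Casp9 held any of these letters in its window. G and C made up 63.6% of the Bid window, 72.0% of the Bcl2l11 window, 66.0% of the Casp9 window and 53.2% of the Bcl2l1 window, against a median of 52.4% over all promoters. The other Bcl2l11 window had 73.2%, the other Bcl2l1 windows 48.4% and 47.6%, and the Bad windows 62.8% and 64.8%. These matches describe the sequence and show no binding.

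Of the 9 genes, Bcl2l11, Casp9 and Bid had the widest ranges of the 6 group means (1.25, 0.98 and 0.85 on the log2 scale). The genes most like Bid over the 24 libraries were Nfkb2 (r = 0.951), which encodes the NF-kB precursor p100, Arhgap22 (r = 0.941) and Oaf (r = 0.935). With the libraries split by treatment, r between Bid and Nfkb2 was 0.83 within the 6 h libraries (n = 8) and 0.281 within all others (n = 16). In the same split r with Bid was 0.556 and 0.351 for Arhgap22 and 0.802 and -0.0242 for Oaf. Nfkb2 averaged 6.37 ± 0.07 at 6 h in Ado KO cells, against 5.27 ± 0.07 untreated, and 6.28 ± 0.11 at 6 h in control cells, against 5.30 ± 0.10 untreated (SD, n = 4 each). The genes most like Bcl2l11 were the semaphorin co-receptor gene Nrp2 (r = 0.88), the kinase gene Sik1 (0.869) and Clic4 (0.867), and those most like Casp9 were Smoc1 (0.782), Vmac (0.78) and Creb3l2 (0.768). Within the 6 h libraries and within all others, r with Bcl2l11 was 0.733 and 0.502 for Nrp2, 0.455 and 0.519 for Sik1, and 0.375 and 0.563 for Clic4. For Casp9 it was 0.529 and 0.603 for Smoc1, 0.182 and 0.737 for Vmac, and 0.517 and 0.447 for Creb3l2, and each of these values is below that over all libraries. The values share libraries and normalisation, and r is given as a description.

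**Figure D4:**
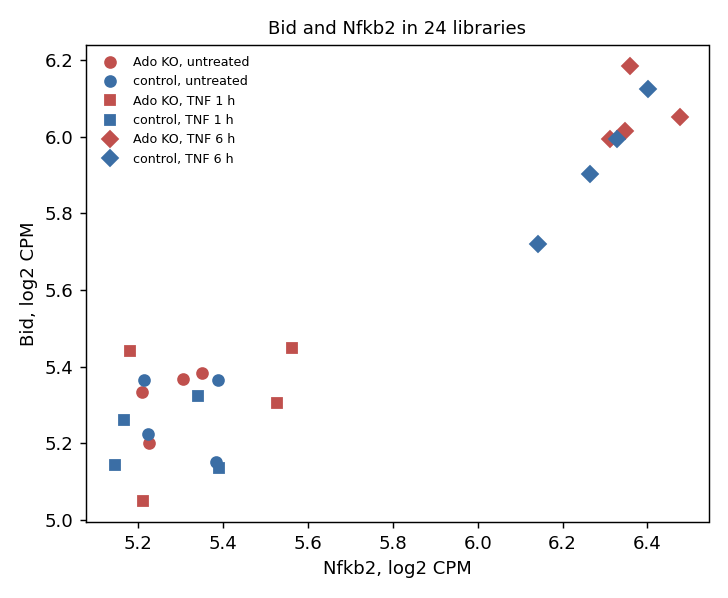
Bid (y axis) against Nfkb2 (x axis), both in normalised log2 CPM, in the 24 libraries, coloured by genotype and shaped by treatment. The 8 libraries at 6 h lie apart at the upper right in both genotypes, and the 16 untreated and 1 h libraries lie lower for both genes.

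Around the 9 genes, 45 of 49 other genes of the pathway were in the table and 43 passed the filter; Bcl2l10, Pmaip1, Hrk and Bcl2l14 were not analysed here. At 6 h limma called 3 of the 43 higher and 1 lower in Ado KO cells, and 4 higher and 3 lower in control cells, where 4.42% and 2.02% of all genes tested were called higher and lower in Ado KO cells and 7.74% and 10.3% in control cells. Their median difference was -0.05 in Ado KO cells and -0.02 in control cells. For the difference between genotypes in the 6 h response limma called 0 of the 43, where 0.347% of all genes tested were called. At 1 h limma called 0 of the 43 in each genotype, where 0.256% of all genes tested were called in Ado KO cells and 0.392% in control cells. At an unadjusted p under 0.05 there were 3 higher and 2 lower in Ado KO cells. In control cells there were 4 higher and 3 lower, with no share of all genes counted.

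In the caspase 8 arm that leads to Bid, limma called 2 of 8 genes higher in Ado KO cells at 6 h and 3 of 8 in control cells. Over all genes tested 4.42% and 7.74% were called higher. The median difference over the 8 genes was -0.01 in Ado KO cells and 0.18 in control cells. The TRAIL receptor gene Tnfrsf10b rose by 0.82 ± 0.12 in Ado KO cells and by 0.59 ± 0.12 in control cells (SE; limma adjusted p = 7.86e-06 and 0.00063). Cflar, which encodes the caspase 8 inhibitor FLIP, had a difference of 0.25 in Ado KO cells that was not called (limma adjusted p = 0.221) and rose by 0.44 ± 0.11 in control cells (SE; limma adjusted p = 0.00497). The death receptor gene Fas rose by 2.52 ± 0.70 in Ado KO cells and by 2.60 ± 0.70 in control cells (SE; limma adjusted p = 0.0216 and 0.00926). Fas ranged from 1.20 to 1.87 log2 CPM at 6 h in Ado KO cells, against -3.35 to 0.15 untreated, and from 0.59 to 1.95 at 6 h in control cells, against -1.70 to -0.95 untreated. The untreated values are near or at the lowest value of the table, so the size of the rise is poorly set.

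Of 5 inhibitor of apoptosis genes 1 was called higher at 6 h in each genotype, namely Birc3, the ubiquitin ligase gene of cIAP2. Over all genes tested 4.42% were called higher in Ado KO cells and 7.74% in control cells. Birc3 was at 2.99, 3.14, 3.04 and 3.01 log2 CPM at 6 h in Ado KO cells, against 0.90, 1.60, 0.79 and 1.18 untreated. In control cells it was at 2.59, 2.88, 3.01 and 2.87 at 6 h, against 1.74, 1.31, 1.41 and 1.11 untreated. The groups stood far apart in both genotypes, with differences of 1.93 ± 0.26 and 1.45 ± 0.26 (SE; limma adjusted p = 2.69e-06 and 0.000164).

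Of 10 other BCL2-related and outer membrane genes 0 were called at 6 h in Ado KO cells (limma), and 3 fell in control cells: Bok, a BCL2 relative (-0.55 ± 0.12, SE; limma adjusted p = 0.00135), the channel gene Vdac1 (-0.27, limma adjusted p = 0.0065) and the Bid receptor gene Mtch2 (-0.20, limma adjusted p = 0.00705). Over all genes tested limma called 6.44% at 6 h in Ado KO cells, and 10.3% lower in control cells. The Ado KO differences of Bok, Vdac1 and Mtch2 were -0.25, -0.22 and -0.15, not called. The difference between genotypes in the 6 h response was called for 0 of these 10 genes and for 0 of the 4 genes listed with MCL1 turnover. Bag3, a co-chaperone gene listed with MCL1 turnover, fell by 0.40 ± 0.09 at 6 h in Ado KO cells (SE; limma adjusted p = 0.0036) and differed by -0.19 in control cells (limma adjusted p = 0.152). Bnip3l, a mitophagy receptor gene, was the only one of the 43 called between genotypes, at 6 h. It averaged 4.54 ± 0.18 in Ado KO cells and 4.97 ± 0.06 in control cells (SD, n = 4 each), a difference of -0.43 (limma adjusted p = 0.0457). Over all genes tested limma called 1.02% between genotypes at 6 h, 0.249% in untreated cells and 1.06% at 1 h, so 1 call among 43 genes is little to go by.

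None of 10 genes for released proteins and effector caspases, such as Cycs and Diablo, was called by limma at 6 h. Nor was any of 5 further anti-apoptotic genes, of which the Bcl2a1 copies are near-identical and uncertain. Over all genes tested limma called 6.44% at 6 h in Ado KO cells and 18.0% in control cells. At an unadjusted p under 0.05 there were 0 in Ado KO cells and 3 in control cells, namely Bcl2, Cycs and Endog, with no share of all genes counted. Bcl2 was higher at 6 h, and of Cycs and Endog 1 was higher and 1 lower. Bcl2 itself, chosen for mention after its values were seen, averaged 3.64 ± 0.30 in untreated Ado KO cells and 2.86 ± 0.32 in untreated control cells (SD, n = 4 each), a difference of 0.78 ± 0.20 (SE; limma adjusted p = 0.0797). The Ado KO libraries lay between 3.28 and 3.89 and the control libraries between 2.41 and 3.12, without overlap, and at 6 h the difference was 0.13 (limma adjusted p = 0.889). Bbc3, which encodes the BH3-only protein Puma and was the 1 further BH3-only gene that passed the filter, was not called in any of these comparisons.

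**Figure D5:**
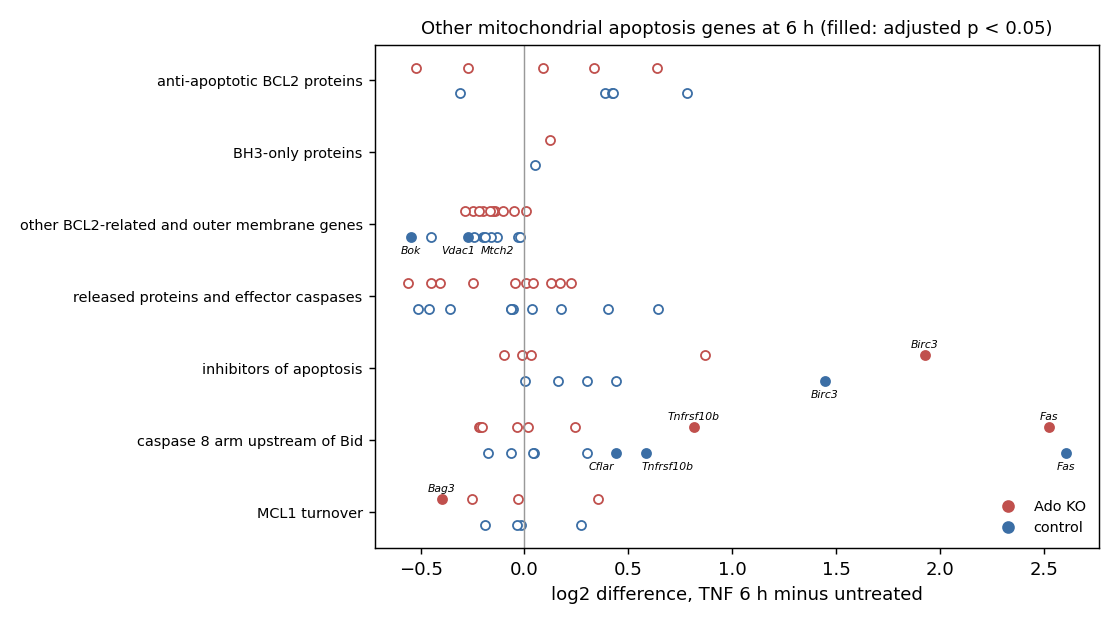
Log2 difference of TNF 6 h minus untreated (x axis) for the 43 other pathway genes by list, in Ado KO cells (red, upper row of each list) and control cells (blue, lower row). Filled and named marks have a limma adjusted p under 0.05, among them Birc3, Fas and Tnfrsf10b in both genotypes.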

How the data were processed

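Total RNA of MC38 cells was made into QuantSeq 3' mRNA libraries. Read checks with FastQC, trimming tool cutadapt 1.7, the aligner HISAT2, Subread with its featureCounts counter, limma, and the builds GRCm38 and mm10 are listed in the submitters' processing notes; the counting strand is not given in the sources used here. The deposited table holds normalised log2 CPM made by the authors. That unit and the normalisation are inferred from the values, since every library has the same lowest and highest value, as after quantile normalisation, and values of different genes tie where tag counts are equal. Columns were matched to libraries by name, with 0 columns left over. For control guide 2 at TNF 1 h the replicate numbers in titles and column names are swapped, and titles were followed.

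Of 15390 genes, 13272 reached 0 log2 CPM in at least 4 libraries. limma 3.58.1 (R 4.3.3) was fitted to all 24 libraries and 6 groups with an intensity trend, with guide population as a random block (estimated correlation 0.0485) and Benjamini-Hochberg adjustment over all genes tested. A gene was called at an adjusted p under 0.05. Counts at an unadjusted p under 0.05 were made for the listed genes only, so no share of all genes stands beside them. Intervals are 95% intervals and cover the spread between libraries. The script was tested on simulated data with independent normal noise around a common mean per gene. No guide effect, tag counting or normalisation was simulated, so the random block and genes with few tags were not checked by it. Depth was estimated from the rank of a value among the distinct values of its library. Promoters are from RefSeq (GRCm38.p6) and gene positions from GENCODE (GRCm38).

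The members and lists were chosen with earlier results of these data known. Named were all 9 members, other pathway genes called in a TNF or genotype comparison (up to 6 per list), and the 3 genes most correlated with each of the 3 members with the widest range of group means. Alternatives were no filter, log2(CPM + 1), guide populations as fixed terms, no guide block, a replicate block, no trend, protein-coding genes normalised again, each guide alone, and each library left out.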

Additional observations from a re-analysis of the deposited data

Results flagged for a closer look

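Among 54 combinations of gene and group, 3 held a library whose gap to its nearest neighbour took up most of the range of its 4 libraries, a test that chance passes in about 1 of 20 groups. Casp9 was at 2.26 log2 CPM in Ado KO TNF 1 h 2-1, far below the other libraries of that group, with a gap of 0.88 of the range. Mcl1 was at 6.85 log2 CPM in control TNF 6 h 2-2, above the others, with a gap of 0.86 of the range. Bax was at 2.61 log2 CPM in control TNF 1 h 1-2, below the others, with a gap of 0.942 of the range; the same library had the highest mitochondrial share of its group (3.58%), whose part in the value was not tested.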

How the results depend on the processing

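The rises of Bid and Bcl2l11 at 6 h kept their direction under every alternative run, and Bid also kept its call. With guide populations as fixed terms 1 of the 9 genes was called between Ado KO and control cells at TNF 1 h (Bcl2l1), against 0. Over all 13272 genes 334 were called higher and 275 lower there, against 141 in either direction with the random block. Fixed terms take the error only from libraries of the same guide and treatment, so the spread between guides of 1 genotype is left out. With guide 1 alone, 1 gene was called in Ado KO cells at 6 h against untreated (2 with all libraries) and 1 at 6 h against 1 h (3 with all libraries), where 3.08% and 3.14% of all genes tested were called (6.44% and 7.77% with all libraries). With guide 2 alone, 1 was called in control cells at 6 h against untreated (5 with all libraries), where 6.32% of all genes tested were called (18.0% with all libraries). These subsets hold fewer libraries. With protein-coding genes normalised again, fewer of all genes were tested (10739), and 690 were called higher and 730 lower at 6 h in control cells, against 1027 and 1365. Of the counts of other pathway genes called, 175 stayed within 1.5 times and 28 did not. With 1 library left out, 1 to 3 genes were called in Ado KO cells and 3 to 5 in control cells at 6 h, and where the fewest were called, 5.31% and 11.9% of all genes tested were. With the replicate block 2 genes were called in Ado KO cells and 5 in control cells at 6 h, as without it; same-numbered libraries had deviations correlated at -0.158 to 0.0543, so the numbers were not taken as pairs. Over all values of single members, 1692 kept direction and side of the threshold, 21 lost a call, 7 gained one and 107 changed sign. These 107, in 45 comparisons of single genes, were called neither with all libraries nor in the alternative (0 and 0), so their direction is not set by these data. Depth limits Bcl2l11 and Casp9 most, with medians of 28.0 and 47.5 tags.

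With protein-coding genes normalised again the sign turned for Apaf1 (0.038) in TNF 6 h against 1 h in control cells. With guide 1 alone the sign turned for Bid (0.046), Casp9 (0.067) and Apaf1 (0.025) in TNF 1 h against untreated in control cells. For TNF 6 h against untreated in control cells it turned for Bax (-0.056). For TNF 1 h against untreated in Ado KO cells it turned for Bid (0.084). For TNF 6 h against untreated in Ado KO cells it turned for Bax (0.21). For untreated Ado KO against control cells it turned for Bcl2l11 (0.061). For Ado KO against control cells at TNF 1 h it turned for Mcl1 (0.11). For Ado KO against control cells at TNF 6 h it turned for Bak1 (-0.13) and Apaf1 (0.17). For the genotype difference in the TNF 6 h response it turned for Mcl1 (-0.15), Bcl2l11 (-0.15) and Bax (0.27). With guide 2 alone the sign turned for Mcl1 (-0.0021), Bcl2l11 (-0.21), Bad (0.14), Bax (0.34) and Bak1 (0.053) in TNF 1 h against untreated in control cells. For TNF 6 h against untreated in control cells it turned for Apaf1 (0.022). For TNF 1 h against untreated in Ado KO cells it turned for Casp9 (-0.32). For untreated Ado KO against control cells it turned for Bcl2l1 (0.067), Mcl1 (-0.21), Bid (-0.014), Bad (0.075), Bax (0.38), Bak1 (0.16) and Apaf1 (-0.029). For Ado KO against control cells at TNF 1 h it turned for Bad (-0.033). For Ado KO against control cells at TNF 6 h it turned for Bcl2l1 (-0.012) and Casp9 (-0.17). For the genotype difference in the TNF 1 h response it turned for Mcl1 (0.081), Bcl2l11 (0.092), Bad (-0.11), Bax (-0.23) and Casp9 (-0.14). For the genotype difference in the TNF 6 h response it turned for Bcl2l1 (-0.079) and Bad (-0.082). For TNF 6 h against 1 h in control cells it turned for Bcl2l1 (-0.018), Bax (-0.050), Bak1 (-0.22) and Apaf1 (0.15). For TNF 6 h against 1 h in Ado KO cells it turned for Apaf1 (-0.057). With 1 library left out, the ranges that cross 0 were those of Bcl2l11 (-0.089 to 0.22), Bax (-0.33 to 0.14), Casp9 (-0.15 to 0.012) and Apaf1 (-0.17 to 0.082) in TNF 1 h against untreated in control cells. In TNF 6 h against untreated in control cells they were those of Apaf1 (-0.16 to 0.072). In untreated Ado KO against control cells they were those of Mcl1 (-0.033 to 0.11) and Bax (-0.25 to 0.016). In the genotype difference in the TNF 1 h response they were those of Mcl1 (-0.12 to 0.024) and Casp9 (-0.045 to 0.35). In the genotype difference in the TNF 6 h response they were those of Mcl1 (-0.035 to 0.11) and Bcl2l11 (-0.14 to 0.20). In TNF 1 h against untreated in Ado KO cells they were those of Bid (-0.058 to 0.076) and Casp9 (-0.10 to 0.29). In TNF 6 h against untreated in Ado KO cells they were those of Bax (-0.18 to 0.084) and Bak1 (-0.11 to 0.052). In Ado KO against control cells at TNF 1 h they were those of Mcl1 (-0.069 to 0.042). In TNF 6 h against 1 h in control cells they were those of Bcl2l1 (-0.11 to 0.071), Mcl1 (-0.016 to 0.095), Bax (-0.018 to 0.44), Bak1 (-0.094 to 0.082) and Apaf1 (-0.14 to 0.12). In TNF 6 h against 1 h in Ado KO cells they were those of Apaf1 (-0.087 to 0.10). In Ado KO against control cells at TNF 6 h they were those of Bcl2l1 (-0.033 to 0.089), Bad (-0.027 to 0.017), Bak1 (-0.011 to 0.15) and Casp9 (-0.016 to 0.31).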
